A study of Homo sapiens with 23 samples.

Results

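The epidermal lipoxygenase pathway was followed here through 5 genes, ALOX12B, ALOXE3, SDR9C7, ALOX15B and ALOX12, chosen by gene symbol from a table of 27589 genes. The tumours were xenografts grown under the skin of immunodeficient NCG mice from SCC-13 cells, a human squamous carcinoma line of skin origin, and were taken 26 days after injection. The 11 knockout (KO) tumours carried a knockout of human Flower (hFWE, symbol CACFD1) and came from line 2F7 (3 tumours), line 2B8 (4 tumours) and line 1G10 (4 tumours). The 12 wild-type (WT) tumours carried intact hFWE and came from lines 5B2, 6C9 and 6C10 (4 tumours each). The labels name the lines by code and state neither how they were derived nor if tumours shared a mouse, and each p-value therefore reflects only how much these tumours varied. Each line has 1 genotype, so genotype is separated from line by only 3 lines on each side. In bulk tumours, fewer differentiated cells and less RNA per cell cannot be told apart.

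The water barrier of the skin depends on ceramides that carry linoleate at the end of a very long omega-hydroxy fatty acid. ALOX12B, the 12R-lipoxygenase, adds oxygen to that linoleate, ALOXE3 isomerises the hydroperoxide to a hydroxy-epoxide, and SDR9C7, a short-chain dehydrogenase, oxidises it further to a ketone, after which the lipid can be bound to the proteins of the cornified envelope. Inherited loss of any of these enzymes causes recessive ichthyosis. ALOX15B and ALOX12 are lipoxygenases of arachidonic acid, with ALOX12 best known from platelets.

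The genes lie in the human genome (hg38) as follows. ALOX12B (ENSG00000179477) covers bases 8072636 to 8087716 of chromosome 17, minus strand, and ALOXE3 (ENSG00000179148) starts 8183 bases further on, at 8095900 to 8119047 of the same strand. ALOX15B (ENSG00000179593) lies 23501 bases before ALOX12B, at 8039034 to 8049134 on the plus strand. ALOX12 (ENSG00000108839) lies apart from them at 6996049 to 7010754 on the plus strand. SDR9C7 (ENSG00000170426) covers bases 56923133 to 56934408 of chromosome 12, minus strand.

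The start regions of the 3 abundant genes are shown because their levels moved together among tumours. Each runs 5′ to 3′ from 250 bases before to 50 bases after a RefSeq start (GRCh38.p14), the one nearest the principal start in GENCODE 29, at chr17:8087667-8087966 for ALOX12B, chr17:8118465-8118764 for ALOXE3 and chr12:56934359-56934658 for SDR9C7, all on the minus strand. Capitals mark matches on either strand to the TATA box (TATAAA), to the AP-1 motif (TGANTCA) and to the motif of KLF factors (CACCC).
ALOX12B: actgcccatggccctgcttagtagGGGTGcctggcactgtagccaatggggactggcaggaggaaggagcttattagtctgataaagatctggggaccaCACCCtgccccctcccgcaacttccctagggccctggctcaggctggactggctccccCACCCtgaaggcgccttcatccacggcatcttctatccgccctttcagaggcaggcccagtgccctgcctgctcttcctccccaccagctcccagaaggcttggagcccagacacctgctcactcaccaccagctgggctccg
ALOXE3: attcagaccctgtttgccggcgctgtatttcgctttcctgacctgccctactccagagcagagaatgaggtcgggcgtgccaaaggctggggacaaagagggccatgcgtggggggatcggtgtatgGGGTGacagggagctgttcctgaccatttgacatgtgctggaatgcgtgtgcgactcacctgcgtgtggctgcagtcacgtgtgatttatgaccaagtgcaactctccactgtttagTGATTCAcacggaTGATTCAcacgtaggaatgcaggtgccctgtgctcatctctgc
SDR9C7: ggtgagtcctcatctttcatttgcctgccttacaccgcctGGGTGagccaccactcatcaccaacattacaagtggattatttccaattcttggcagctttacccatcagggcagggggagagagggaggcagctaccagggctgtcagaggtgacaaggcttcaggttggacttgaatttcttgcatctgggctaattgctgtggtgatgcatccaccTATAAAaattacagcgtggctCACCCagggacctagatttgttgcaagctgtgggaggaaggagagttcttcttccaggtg
SDR9C7 held TATAAA at -31 from the start, as did 11.5% of 35116 windows of this length somewhere in them. The ALOXE3 window shown held TGANTCA at -6 and at 7, a motif in 7.71% of windows. RefSeq gives 2 other ALOXE3 starts, 1 with no TGANTCA match and 1 whose window holds the same TGANTCA matches at -217 and -204. CACCC was in all 3 and in 59.9% of windows. AACCGGTT (GRHL motif, 0.134% of windows) and TTGCNNAA (C/EBP motif, 10.5%) were in none of the 3. These letter matches are descriptions and say nothing of binding.

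Sequencing depth, estimated from the smallest step of each library's values, was 13082214 to 22093357 reads in 21 libraries. Specimens 5532 (7011069 reads) and 5533 (2037751 reads), both WT of line 6C9, were shallower, and specimen 5533 correlated with the remaining libraries at a median r of 0.763. CACFD1 averaged 276 ± 58.9 normalized counts in KO tumours and 373 ± 47.1 in WT tumours (SD, n = 11 and 12). Its transcript was thus still present in KO tumours, and gene-level values do not show where it was altered. By line, CACFD1 averaged 342 ± 31.6 in KO 2F7, 265 ± 44.1 in KO 2B8 and 237 ± 49.0 in KO 1G10. The WT lines were at 403 ± 37.4 (5B2), 331 ± 35.4 (6C9) and 384 ± 42.2 (6C10), so KO 2F7 lay among them. Of 16063 genes tested with limma, 1 passed an adjusted p of 0.05 (0.00623%), lower in KO, and 0 passed as higher. At an unadjusted p under 0.05, 1065 genes (6.63%) were lower and 948 (5.9%) higher in KO. The defining keratins of squamous cells were abundant, KRT5 at 319300 ± 41150 in KO tumours and 258900 ± 59360 in WT tumours.

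ALOX12B, ALOXE3 and SDR9C7 had lower mean levels in KO tumours, by 0.50 to 0.78 on the log2 scale, but none passed the adjusted threshold. Line means of KO 2F7 lay among those of the WT lines, and those of KO 2B8 and KO 1G10 lay below them. ALOX15B and ALOX12 were close to the detection limit in both genotypes. Scaled to exon length (GENCODE 29), SDR9C7 was highest at 410 ± 166 per kilobase in KO tumours and 571 ± 123 in WT tumours. ALOX12B followed at 103.1 ± 48.0 in KO and 162.6 ± 53.0 in WT, then ALOXE3 at 45.9 ± 17.3 in KO and 62.3 ± 18.7 in WT. ALOX12 (2.63 in KO, 2.89 in WT) and ALOX15B (1.86 in KO, 2.50 in WT) were far below.

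ALOX12B, the first enzyme, had 315, 412 and 371 normalized counts in KO line 2F7, 245, 362, 151 and 136 in KO line 2B8, and 258, 293, 511 and 61.3 in KO line 1G10. In WT line 5B2 it had 733, 622, 560 and 356, in line 6C9 416, 367, 251 and 247, and in line 6C10 464, 522, 362 and 458. The groups overlapped, although 10 of 11 KO tumours were below the WT median and 4 were below every WT tumour. The share of all genes with such counts was not computed. The stricter case, all 11 below the WT median, held in 2.78% of tested genes. The mean was 283 ± 132 in KO and 446.5 ± 145 in WT (SD, n = 11 and 12), a log2 difference of -0.78 (SE 0.28, 95% interval -1.35 to -0.21, limma adjusted p = 0.287). A two-sided permutation test over tumours gave p = 0.00933 for this gene alone, without adjustment. An exact permutation of the 3 against 3 line means gave p = 0.2, where 0.1 is the smallest possible.

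ALOXE3, the second enzyme, had 214, 265 and 185 normalized counts in KO line 2F7, 162, 203, 98.1 and 111 in KO line 2B8, and 177, 202, 238 and 44.5 in KO line 1G10. In WT line 5B2 it had 377, 268, 293 and 184, in line 6C9 197, 220, 199 and 82.2, and in line 6C10 255, 259, 229 and 247. Of 11 KO tumours, 10 were below the WT median, but only 1 was below every WT tumour. The lowest WT value came from the shallowest library, where it rested on about 9 reads. For ALOXE3 as well, no share of all genes with such counts was computed. The mean was 173 ± 64.9 in KO and 234 ± 70.4 in WT, a log2 difference of -0.50 (SE 0.25, 95% interval -1.02 to 0.03, limma adjusted p = 0.418). The permutation p over tumours was 0.0712, and 0.00572 with a difference of -0.66 without the 2 shallow WT libraries. Over line means the exact permutation p was 0.2. Without KO specimen 5549, the lowest tumour, the difference was -0.32 with a permutation p of 0.153.

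SDR9C7, the dehydrogenase after them, had 686, 864 and 1033 normalized counts in KO line 2F7, 623, 970, 576 and 386 in KO line 2B8, and 590, 779, 1231 and 222 in KO line 1G10. In WT line 5B2 it had 1346, 1262, 1144 and 858, in line 6C9 833, 751, 866 and 658, and in line 6C10 1233, 1084, 1027 and 1032. Again the groups overlapped, with 5 of 11 KO tumours below every WT tumour and 9 below the WT median. For these counts too, no share over all genes was computed. The mean was 724 ± 292 in KO and 1008 ± 217 in WT, a log2 difference of -0.58 (SE 0.21, 95% interval -1.02 to -0.14, limma adjusted p = 0.297). The permutation p over tumours was 0.0112, and the exact p over line means was 0.2.

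**Figure D1:**
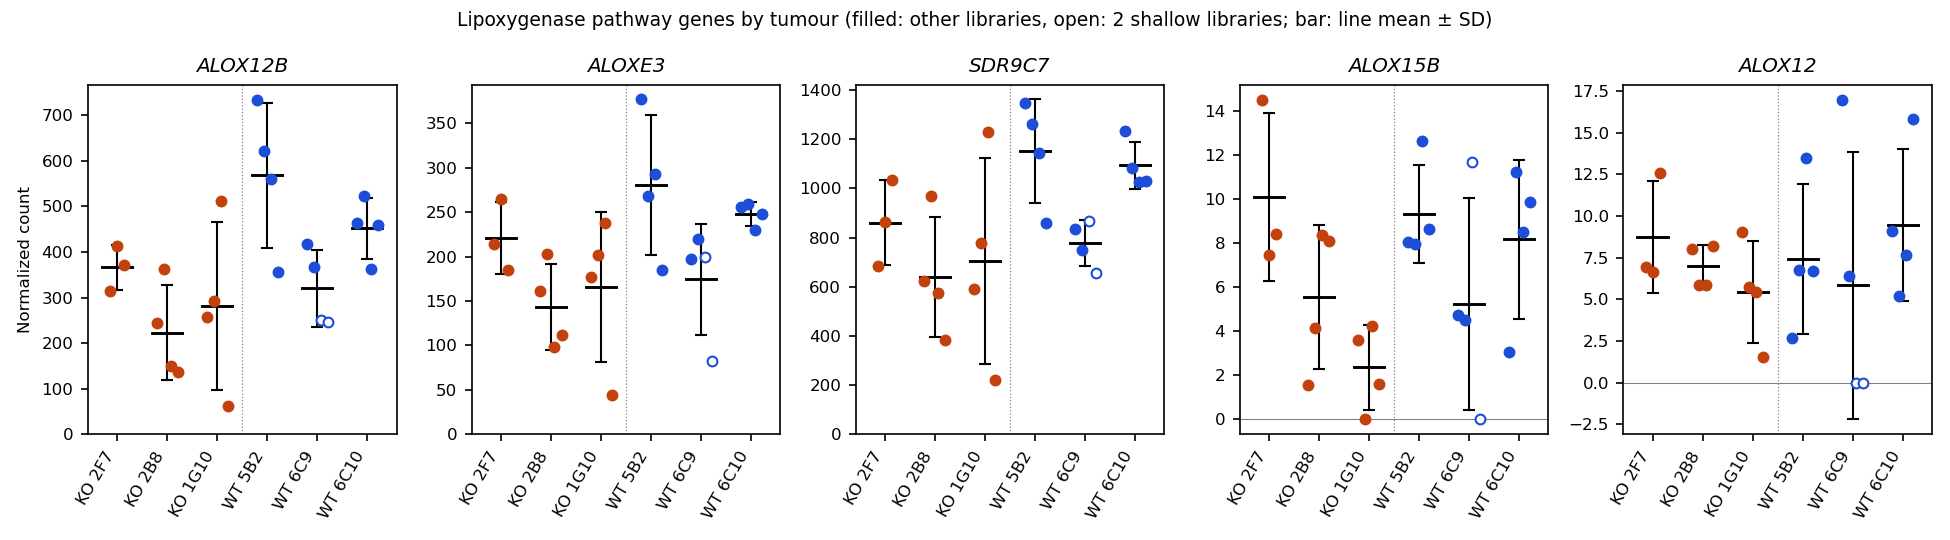
Normalized counts (vertical axis, from 0 for the abundant genes) of the 5 genes in each tumour, by line, with KO lines left and WT lines right; bars are line means ± SD and open points are the 2 shallow libraries. ALOX12B, ALOXE3 and SDR9C7 are lowest in 1 tumour of KO line 1G10, with 61.3, 44.5 and 222 normalized counts.

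ALOX15B had 0 to 14.5 normalized counts in KO tumours (median 4.22) and 0 to 12.7 in WT tumours (median 8.27), from at most 19 reads. It was 0 in 1 KO tumour, where the limit that a count of 0 allows was 2.86, and in WT specimen 5533, where that limit was 27.4. The means were 5.63 ± 4.21 in KO and 7.57 ± 3.81 in WT, a log2 difference of -0.47 (permutation p = 0.321). ALOX12 had 1.56 to 12.6 in KO tumours (median 6.62) and 0 to 16.9 in WT tumours (median 6.73), with both zeros in the shallow WT libraries. Its means were 6.89 ± 2.72 in KO and 7.56 ± 5.56 in WT, while the mean log2 level was higher in KO by 0.23 (permutation p = 0.616), with the 2 WT zeros included. Both genes were under the mean of 10 that the test required. No difference was detectable at this depth. The antisense gene ALOX12-AS1 overlaps ALOX12 and was more abundant, at 49.8 ± 11.7 in KO and 55.1 ± 12.3 in WT, and ALOX12P2 is a pseudogene copy. Because no source used here gives the strand setting of the counting, ALOX12 is uncertain, and so is ALOX12B, which overlaps a long noncoding gene on the other strand (67.3 in both genotypes).

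Among lines, the order was the same for the 3 abundant genes at its top. Mean log2 ALOX12B was 9.10 in WT 5B2, 8.81 in WT 6C10, 8.51 in KO 2F7, 8.29 in WT 6C9, 7.80 in KO 1G10 and 7.70 in KO 2B8. ALOXE3 followed that order, and SDR9C7 differed from it only in that KO 2B8 and KO 1G10 changed places. Neighbours in these orders overlapped in range. The KO line means were not all below the WT line means for any of the 5 genes, a separation seen in 8.87% of tested genes, and in 9.77% in the other direction. Against the mean of the WT lines, ALOX12B differed by -1.04 (SE 0.36) in 2B8, -0.94 (SE 0.36) in 1G10 and -0.22 (SE 0.40) in 2F7, with limma adjusted p of 0.451, 0.387 and 0.95. ALOXE3 differed by -0.69, -0.67 and -0.02 in the same lines, and SDR9C7 by -0.70, -0.73 and -0.22. In line 1G10 these values rested on specimen 5549, without which ALOX12B differed by -0.33, ALOXE3 by -0.12 and SDR9C7 by -0.25. None passed, nor did any of the 16063 genes (0%) in these contrasts. The difference of 2B8 and 1G10 from 2F7 itself was -0.76 for ALOX12B (95% interval -1.64 to 0.11, limma adjusted p = 1), so the KO lines were not shown to differ.

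**Figure D2:**
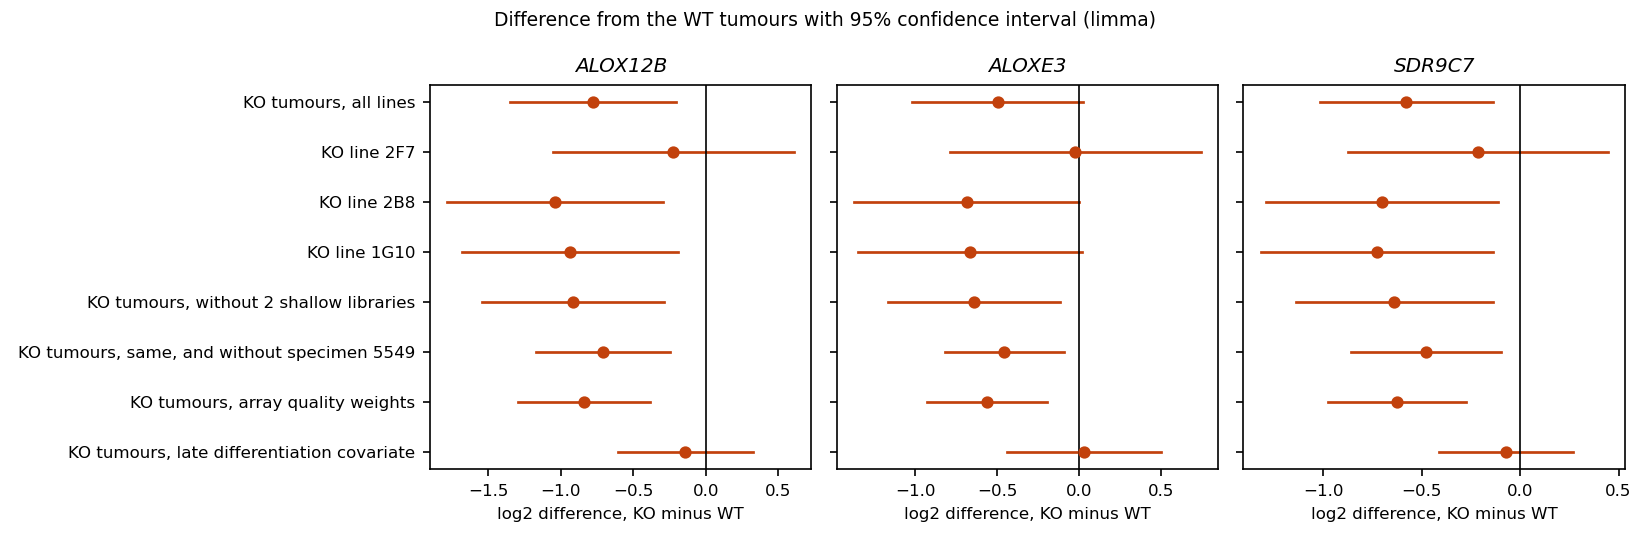
Log2 difference of KO from WT tumours (horizontal axis) with 95% confidence intervals from limma for ALOX12B, ALOXE3 and SDR9C7, for all KO tumours, for each KO line and under other settings. Among the KO lines, 2F7 is nearest to 0, and with the late differentiation score as covariate ALOX12B is at -0.14 and ALOXE3 at 0.03.

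The levels of the 3 genes were correlated among tumours. Over 23 tumours, ALOX12B correlated with SDR9C7 at Pearson's r = 0.954 and Spearman's rho = 0.910, with ALOXE3 at r = 0.927 and rho = 0.902, and ALOXE3 with SDR9C7 at r = 0.885 and rho = 0.846. Each permutation p was 1e-05, the smallest possible, and 3.33e-05 after Benjamini-Hochberg adjustment over 10 pairs. Within KO tumours r was 0.965, 0.972 and 0.896 for these pairs, and within WT tumours 0.853, 0.826 and 0.852. Without the 2 tumours farthest from the median, r was 0.886, 0.850 and 0.838. The 7 pairs with ALOX15B or ALOX12 did not pass (adjusted permutation p of at least 0.0737). The log2 ratio of ALOX12B to ALOXE3 within a tumour was 0.65 ± 0.24 in KO and 0.93 ± 0.30 in WT, a difference of -0.28 (permutation p = 0.021, 0.063 adjusted over 3 ratios). The ratio of ALOX12B to SDR9C7 differed by -0.20 (permutation p = 0.0889) and that of ALOXE3 to SDR9C7 by 0.08 (p = 0.56).

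The 3 genes were also correlated with late differentiation. A score of 15 late markers, the mean log2 level of genes such as KRT10 and FLG, was 12.67 ± 1.05 in KO tumours and 13.70 ± 0.61 in WT tumours. Of 10 relations between a member and the score of late or of basal markers, examined after the data were seen, 3 passed by Pearson's r over all 23 tumours. These were the late score with SDR9C7 (r = 0.840, rho = 0.795, adjusted permutation p = 1e-04), ALOX12B (r = 0.821, rho = 0.737, adjusted p = 3e-04) and ALOXE3 (r = 0.745, rho = 0.746, adjusted p = 0.00143). Without the 2 farthest tumours r was 0.668, 0.648 and 0.499. After centring on the line mean r was 0.755, 0.728 and 0.633 (adjusted permutation p of 0.0019, 0.00235 and 0.0126). By rank the centred relations did not pass, with rho of 0.505, 0.426 and 0.516 (adjusted permutation p of 0.0758, 0.143 and 0.0758). Within KO tumours r was 0.842, 0.894 and 0.918, but within WT tumours it was 0.605, 0.362 and 0.215 and none passed after adjustment. There rho was 0.832, 0.685 and 0.762, with adjusted p of 0.0135, 0.0568 and 0.0276. With basal markers, Pearson's r was -0.455 for SDR9C7, -0.399 for ALOX12B and -0.180 for ALOXE3 (adjusted permutation p of 0.097, 0.108 and 0.485). Within WT tumours each Pearson's r was positive, but Spearman's rho was -0.126, 0.154 and -0.049 (adjusted permutation p of 0.887 each). The lowest basal score in WT tumours, 13.13, was that of the shallowest library, specimen 5533. Within KO tumours r with basal markers was -0.780, -0.785 and -0.724 (adjusted permutation p of 0.00662, 0.00662 and 0.00945), and without the 2 shallow WT libraries it was -0.769, -0.735 and -0.703 (adjusted p of 5e-05, 0.00016 and 0.000267). Without those libraries the late score also passed by Pearson's r with ALOX15B (r = 0.553, adjusted permutation p = 0.019) and ALOX12 (r = 0.473, adjusted p = 0.0409). By rank ALOX15B passed there (rho = 0.465, adjusted permutation p = 0.0435) and ALOX12 did not (rho = 0.225, adjusted p = 0.362). With KO specimen 5549 left out as well, ALOX12 gave r = 0.079 (adjusted permutation p = 0.742). Spearman's rho with basal markers was -0.629, -0.471 and -0.467 over all tumours (adjusted p of 0.00447, 0.0436 and 0.0436). With the late score as covariate, the KO difference was -0.14 for ALOX12B, 0.03 for ALOXE3 and -0.07 for SDR9C7 (limma adjusted p of at least 0.979). The part of differentiation in the result was not tested beyond this covariate.

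**Figure D3:**
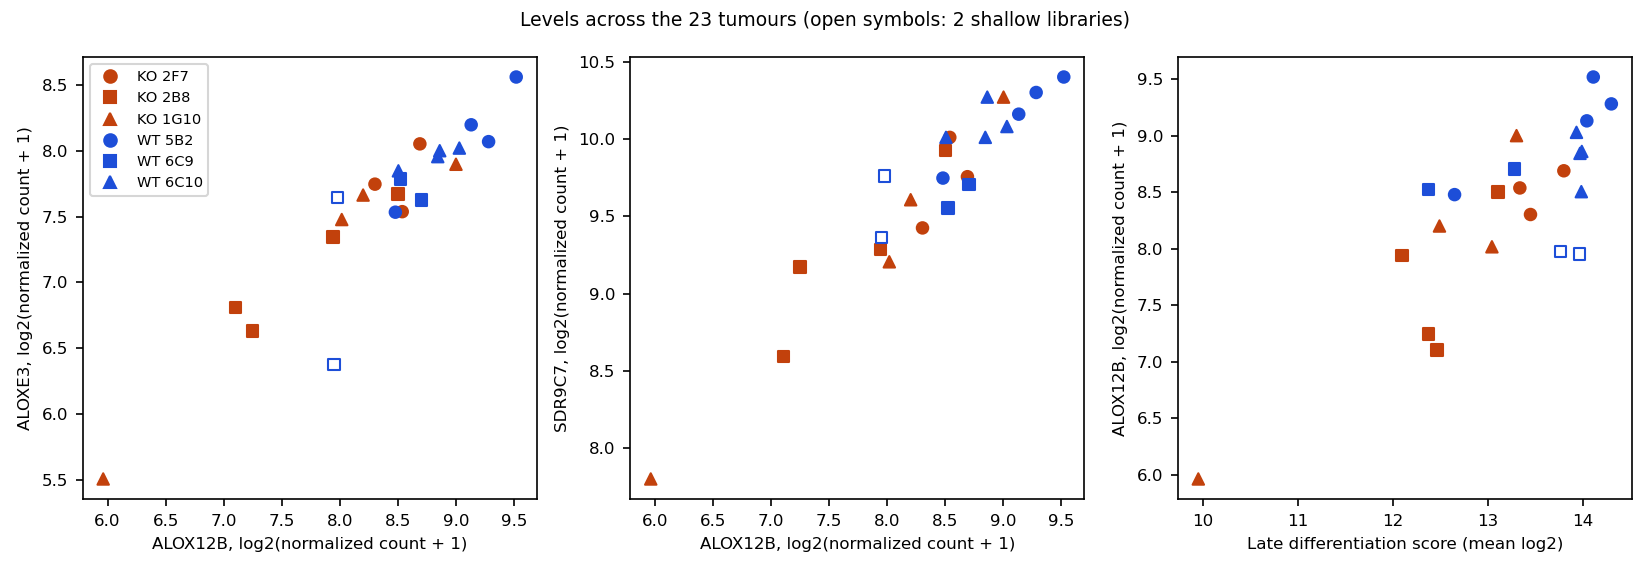
Log2 levels of ALOXE3 and SDR9C7 against ALOX12B, and of ALOX12B against the late differentiation score, in 23 tumours; colour gives genotype, shape the line, and open symbols the 2 shallow libraries. ALOX12B and SDR9C7 lie along a line (r = 0.954), with KO specimen 5549 lowest on every axis.

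Closest to ALOX12B in rank over the 23 tumours, among 12718 protein-coding genes, were LYPD3 (rho = 0.953), PGLYRP3 (0.937) and KLF4 (0.922), a transcription factor of the upper epidermis. Closest to ALOXE3 were ABLIM1 (0.958), PGLYRP3 (0.947) and ATP2C2 (0.939). Closest to SDR9C7 were KRT78 (0.962), ACP7 (0.939) and ELOVL7 (0.937). After centring on the line mean, ALOX12B was closest to RALGPS2 (0.926), MAPK14 (0.899) and PIM1 (0.882), and SDR9C7 still to KRT78 (0.906), then DSC1 (0.884) and ELOVL7 (0.857). For ALOXE3 these were WDR26 (0.903), ATP2C2 (0.887) and EHF (0.887). These are descriptions over tumours that share lines and depth.

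Of 14 genes that supply the substrate, 12 had a lower mean log2 level in KO tumours, against 7347 of all 16063 tested genes. The 2 higher ones were SPTLC2 (0.14, SE 0.11) and KDSR (0.14, SE 0.07). None of the 14 passed the adjusted threshold. At an unadjusted p under 0.05, 9 were lower and 0 higher, against 6.63% and 5.9% of all genes, and the median log2 difference was -0.42, against 0.03 for all genes. The 2 most abundant were ABCA12, the lipid transporter of lamellar granules, at 2297 ± 934.6 in KO and 2909 ± 1259 in WT (-0.30, SE 0.30), and ELOVL1, a fatty acid elongase, at 1655 ± 489.5 in KO and 2204 ± 426.8 in WT (-0.44, SE 0.14). Chosen after their values were seen, ELOVL4, which makes the very long chain, differed by -0.99 (SE 0.29), CYP4F22, which adds the omega-hydroxyl group, by -0.82 (SE 0.29), CERS3, the ceramide synthase, by -0.29 (SE 0.09), and PNPLA1, which transfers linoleate to the ceramide, by -0.62 (SE 0.23), each with a limma adjusted p of at least 0.227. Of 7 tested genes for epoxide hydrolysis and lipid attachment, 1 was lower at an unadjusted p under 0.05 and 0 were higher (median -0.12). The most abundant, the envelope protein IVL, had 14060 ± 5264 in KO and 11610 ± 4247 in WT (0.26, SE 0.21), and PPL had 7855 ± 2765 in KO and 8190 ± 2632 in WT. EPHX3, an epoxide hydrolase of the epidermis, averaged 0.736 in KO and 0.699 in WT and was not tested.

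Other families were read in the same way, and no member of any list passed the adjusted threshold. At an unadjusted p under 0.05, 5 of 9 other recessive ichthyosis genes were lower (median -0.30) and 4 of 14 lipoxygenase and eicosanoid genes (-0.16). So were 3 of 7 retinol dehydrogenases (-0.28) and 5 of 15 differentiation regulators (-0.16), with 1 regulator higher. Of all tested genes, 6.63% were lower and 5.9% higher at that p, the share to set beside each list count here. Of the ichthyosis genes, ABCA12, CERS3, CYP4F22, PNPLA1 and TGM1 also stand in the lists above, and CERS3, CYP4F22 and PNPLA1 are among the lower ones of both. Of 15 late markers 13 were lower (-1.12), and of 8 basal markers 5 were higher (0.45). The late markers not lower at that p were KRT2, higher in KO by 0.40 (SE 0.52), and HRNR (-0.13, SE 0.42). Among basal markers only KRT15 had a lower mean log2 level in KO (-0.035, SE 0.19). Of 7 sebocyte markers only 3 had values, and 2 of these were lower at that p (-1.23), among them KRT79. The list summed to 51.5 to 1043 in KO and 493.5 to 2169 in WT. Most of that sum was KRT79, with means of 563 in KO and 1291 in WT, against 40.7 and 60.4 for ELOVL3. The sum therefore follows 1 gene and does not show that sebocytes were present. All 13 mitochondrially encoded transcripts had a lower mean log2 level in KO (median -0.37), against 7347 of all 16063 tested genes. At an unadjusted p under 0.05 there were 0 of them. Their sums were 140400 to 330300 in KO (median 205500) and 161400 to 844900 in WT (median 213100). The highest mean log2 level of this list, 15.18, was that of the shallowest library, WT specimen 5533. The part of these transcripts in the result was not tested. Of 9 squamous identity genes 1 was higher (0.29), and of 3 tested macrophage markers none passed at that p (0.23). Platelet markers summed to 2.11 to 16.1 in KO and 0 to 11.1 in WT, and none was abundant enough to test. Fibroblast markers summed to 3818 to 28200 in KO and 2348 to 16750 in WT. Most of this was collagen, with COL1A1 at 7008 in KO and 5013 in WT, while DCN was at 21.1 and 18.8. Because the treatment of mouse reads is not stated, these sums do not measure fibroblasts. The part of these markers in the result was not tested beyond a covariate, under which ALOX12B differed by -0.72. Around ALOX12B, 0 of 38 tested genes within 500000 bases passed, and 0 of 21 did around SDR9C7. Only 0.00623% of all tested genes passed, so these counts could hardly differ from 0. At an unadjusted p under 0.05, 4 neighbours of ALOX12B were lower and 1 higher, and 0 of SDR9C7 were lower and 1 higher.

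**Figure D4:**
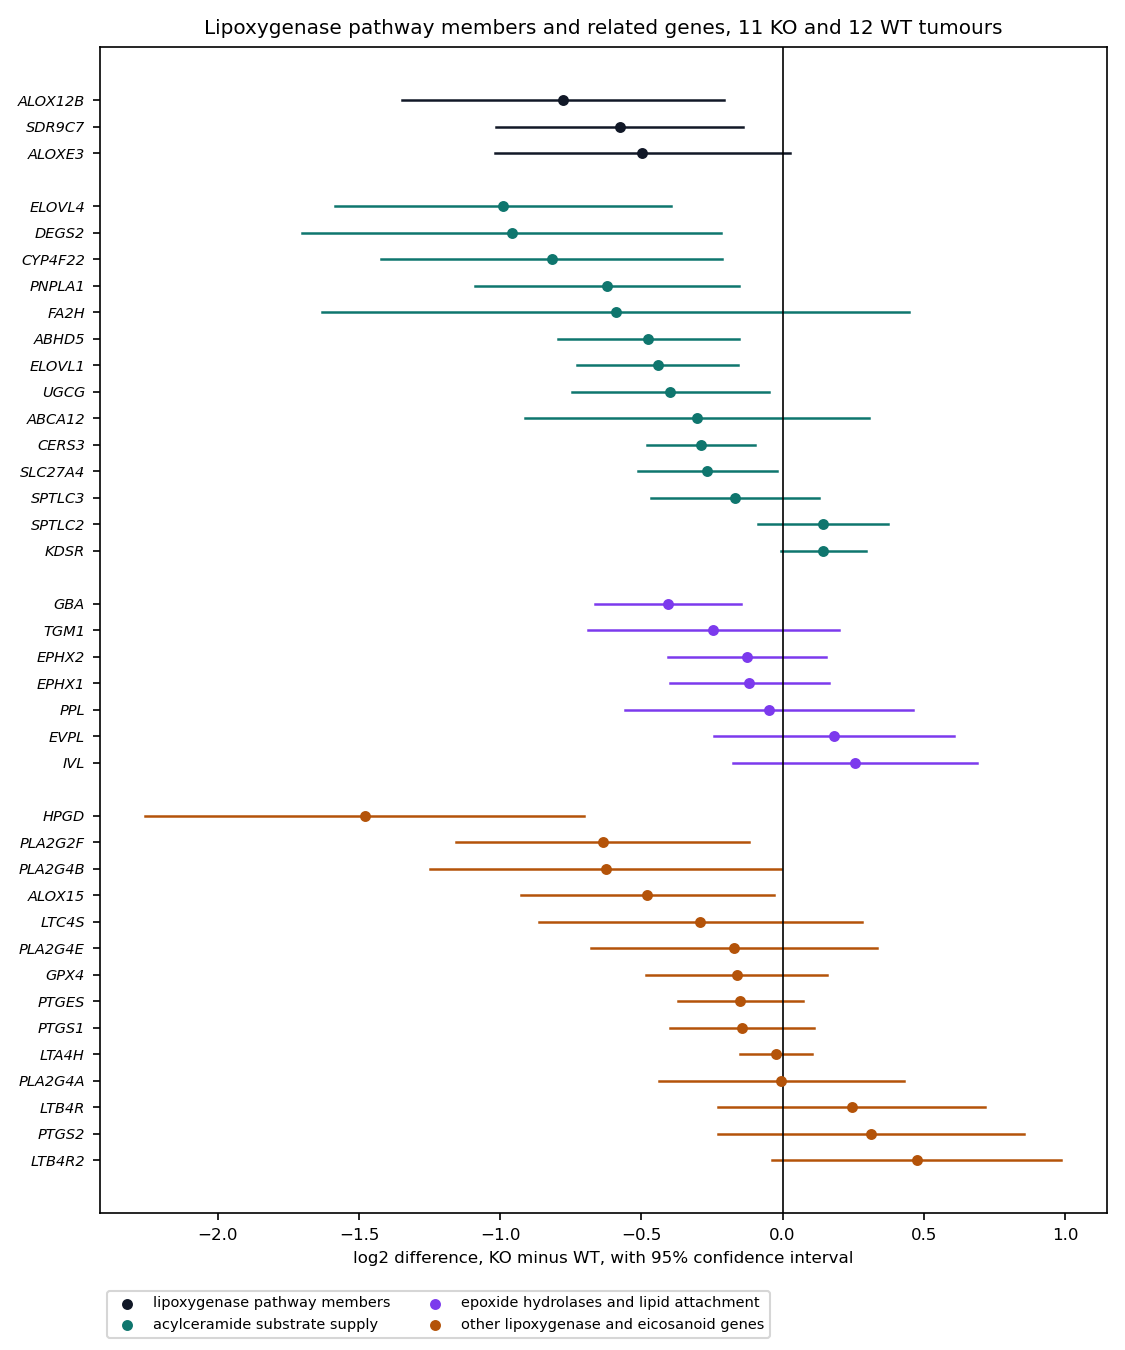
Log2 difference of KO from WT tumours (horizontal axis) with 95% confidence intervals for the tested pathway members, substrate supply genes, attachment genes and other lipoxygenase and eicosanoid genes. ELOVL4 (-0.99) and CYP4F22 (-0.82) lie on the same side as ALOX12B (-0.78), and IVL (0.26) on the other.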

How the data were processed

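Poly(A) RNA, 500 ng per tumour, was made into directional libraries, per the labels' protocols. The deposited table holds 1 normalized signal value per gene and tumour, called normalized count here; per the submitters' processing notes the authors used STAR and DESeq2 with hg38, with no versions or roles stated. No source used here states how reads of mouse cells were treated. Fractional values prevented recovery of whole reads, so estimated reads are approximate.

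Genes with a mean of at least 10 were tested, on log2(value + 1), which understates changes of low genes, with limma 3.58.1 in R 4.3.3 (trended prior, line as random block with consensus correlation 0.00766, Benjamini-Hochberg adjustment over all 16063 genes). Permutation tests (100000 resamples, two-sided) used Python 3.11.15 and numpy 2.4.6. The fit was also run on simulated counts, drawn independently for each tumour and gene around set changes. Apart from those changes the counts held no line effect and no shared differentiation, so the run does not bear on either. Members and the 14 gene lists were chosen with earlier results of these data known. Named genes were the members, CACFD1, per list up to 4 members past the threshold or else the 2 most abundant, given here for the pathway lists, and the 3 genes most like each tested member. Some other list genes were named after their values were seen. Alternatives changed the pseudocount, filter, scaling, block, weights, covariates, lines and libraries. Intervals and limits at 0 reads cover counting error or tumour spread only. ALOX15B had no start region in the table used and is not shown.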

Additional observations from a re-analysis of the deposited data

Results flagged for a closer look

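ALOXE3 in WT line 6C9 stood out because 1 of its 4 tumours, specimen 5533, lay far below the others, at 82.2 normalized counts. On the log2 scale, on which the rule was applied, the gap to the nearest tumour was 0.887 of the line's range, and on the linear scale 0.832, against a critical value of 0.829 (Dixon). This was 1 flag among 25 groups of a gene and a line, and chance flags about 1 in 20. That library was the shallowest, with about 9 reads for ALOXE3.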

How the results depend on the processing

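No paired analysis was possible because the specimen numbers are unique and KO and WT tumours share none. Of 375 values under other settings 68 changed their call, direction or count, as did 37 of 759 with 1 tumour left out. With array quality weights, 738 genes passed (484 lower), among them ALOX12B (-0.84, limma adjusted p = 0.0301) and SDR9C7 (-0.63, adjusted p = 0.0355), but not ALOXE3 (-0.56, adjusted p = 0.0659). The count of genes, 1 as reported, was 0 with rescaled totals, line means, either covariate, without the 2 shallow libraries (also with specimen 5549 left out, chosen after seeing the data), and without line 2B8, 1G10, 5B2 or 6C10. Without a filter it was 1 for line 2F7 and 1 for line 2B8. ALOXE3 turned to 0.032 with the late score, and to 0.035 in 2F7 with rescaled totals, which moved the median of all genes to 0.08.

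By permutation, ALOX12B was -0.63 without line 2B8 (p = 0.0597) and -0.60 without 5B2 (p = 0.0876). SDR9C7 was -0.48 without 5B2 (p = 0.0836) and -0.51 without 6C10 (p = 0.0749). ALOXE3 fell below an unadjusted permutation p of 0.05 without the shallow libraries (-0.66, p = 0.00572), also without 5549 (-0.48, p = 0.00812). It did so too without 2F7 (-0.68, p = 0.0259) and without 6C9 (-0.72, p = 0.00854). In these settings its limma adjusted p was 0.401, 0.575, 0.307 and 0.201, so ALOXE3 did not pass over all genes. ALOX15B, -0.47 as reported, was 0.051 without 1G10. ALOX12, 0.23 as reported, was -0.005 with pseudocount 10, -0.30 without the shallow libraries, -0.15 without these and 5549, and -0.22 without 6C9. The ratio of ALOX12B to SDR9C7 was -0.28 (p = 0.0153), and that of ALOXE3 to SDR9C7 -0.001, without the shallow libraries.

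Without these and 5549, ALOX12 correlated at -0.075 with ALOX12B, -0.151 with ALOXE3 and -0.092 with SDR9C7, and with ALOXE3 at -0.062 without the 2 farthest tumours. From 0.095, the late score and ALOX12 gave -0.12 within WT and -0.16 without the farthest. They gave 0.473 without the shallow libraries (adjusted permutation p = 0.0409), but 0.079 without these and 5549 (adjusted permutation p = 0.742). For ALOX15B the late score gave 0.553 without the shallow libraries and 0.487 without these and 5549. Within WT the late score gave 0.362 for ALOX12B, 0.215 for ALOXE3 and 0.605 for SDR9C7, which did not pass. The basal score within WT gave Pearson's r of 0.34 for ALOX12B, 0.58 for ALOXE3, 0.20 for SDR9C7 and 0.57 for ALOX15B. By Spearman's rho these were 0.154, -0.049, -0.126 and -0.084. The basal score passed within KO for ALOX12B (-0.785), ALOXE3 (-0.724) and SDR9C7 (-0.780). For ALOX12B, ALOXE3, SDR9C7 and ALOX15B it passed without the shallow libraries (-0.735, -0.703, -0.769 and -0.584), without the 2 farthest tumours (-0.571, -0.594, -0.688 and -0.547) and without the shallow libraries and 5549 (-0.668, -0.633, -0.721 and -0.519). Centred on the line it gave 0.12 for ALOXE3 and 0.35 for ALOX15B. For ALOX12 it was -0.47 within KO, -0.32 without the shallow libraries and -0.092 without these and 5549. The causes were not tested.

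Leaving out 1 tumour at a time, the permutation values ranged from -0.628 to -0.318 for ALOXE3 (p = 0.00544 to 0.153) and from -0.010 to 0.383 for ALOX12. ALOXE3 in line 2F7 ranged from -0.160 to 0.098. The unadjusted permutation p of ALOXE3 fell below 0.05 without KO specimen 5539 (p = 0.04), KO 5548 (p = 0.0498) or WT 5533 (p = 0.00544). Its limma adjusted p was then 0.333, 0.357 and 0.247. ALOX12 turned to -0.01 without WT 5532 or 5533. ALOX12B in line 1G10 ranged from -1.341 to -0.328, the end nearest 0 being without specimen 5549. The count of genes ranged from 0 to 2 for KO against WT and among WT lines, from 0 to 17 for line 2B8 (17 without WT 5529) and from 0 to 26 for line 1G10 (26 without WT 5531, 16 without WT 5529). ALOX12B kept a permutation p of 0.00301 to 0.0213 and SDR9C7 of 0.00265 to 0.0249. Depth limits ALOX15B and ALOX12, with at most 19 and 21.4 reads.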
